A study of Mus musculus with 50 samples.

Results

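Livers of 12 C3H/He mice on the control diet were ranked by their expression of Cd44, the cell surface receptor for hyaluronan, and the 4 livers with the highest levels were compared with the 4 with the lowest. The 8 livers come from a series of 50 RNA-seq libraries. Cd44 was taken as CPM (the count of the gene over the total count of the library, times 1000000), so that the groups were chosen by this 1 measured value, and the 4 livers between the groups were left out of the comparison of groups. Because measured Cd44 chose the groups, the levels of Cd44 are given as a description and Cd44 was left out of every test.

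According to the methods of the study, the control diet was low in trans-fat and came without sugar, although its data sheet gives reduced sucrose. The comparison diet, called ALIOS, drew a larger share of its calories from fat. It was high in trans-fat and came with fructose in the drinking water. All tissue was labelled non-tumour liver, taken at 48 weeks from C3H/He mice, and none of it was labelled as coming from mice given the carcinogen DEN. The high group held N6, N10, N7 and N8, the low group held N5, N1, N12 and N2, and the middle livers were N3, N4, N11 and N9. A further 11 non-tumour livers from the ALIOS diet, N13 to N23, served as a second set in which the same ranking was made. According to the methods of the study the mice were male, came from 2 suppliers as the substrains C3H/HeNHsd and C3H/HeNCrl, and those sequenced came from its follow-up experiment. The labels do not give the substrain, sequencing lane, weight, histology or tumour status of any 1 liver, and some control diet mice of this strain carry spontaneous liver tumours. No label says how far the livers are independent beyond 1 library each, so p-values measure the spread between these libraries.

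CD44 binds hyaluronan and other matrix molecules, and it is carried by activated lymphocytes, monocytes and macrophages, and in injured liver also by progenitor and stellate cells. In resting liver most immune cells are Kupffer cells, the resident macrophages of the sinusoids, and inflammation adds monocytes recruited through the receptor CCR2, lymphocytes and neutrophils. Leukocytes share a small set of signalling and cytoskeletal proteins, such as the phosphatase CD45, the transcription factor PU.1 and the NADPH oxidase, whose transcripts are sparse in a liver made up mostly of hepatocytes. Interferons raise guanylate-binding proteins, GTPases and chemokines in hepatocytes and leukocytes alike, whereas the acute phase proteins are secreted by hepatocytes in response to interleukin 6.

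Cd44 (ENSMUSG00000005087.15, chr2:102811141-102901665 on the minus strand of GRCm38) was sparse in all livers, with 43 to 170 counts a control liver. In the high group it reached 5.54 CPM in N6, 5.30 in N10, 4.02 in N7 and 3.93 in N8. The middle livers held 2.19 (N3), 2.01 (N4), 1.97 (N11) and 1.79 (N9), and the low group 1.71 (N5), 1.63 (N1), 1.63 (N12) and 1.53 (N2). The last liver inside the high group therefore stood well clear of the first outside it, at 3.93 against 2.19 CPM, whereas the low group began at 1.71 beside a middle liver at 1.79. On the ALIOS diet Cd44 ran from 2.05 CPM in N13 to 15.1 in N17, and N17 and N19 (15.02) lay far above the other 9 livers, the highest of which was 6.48. Total counts ran from 23968280 to 35091968 in the control livers and did not differ detectably between the high and low groups (exact permutation test, 2-sided, p = 0.4571, where 4 against 4 cannot go below 0.0286).

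**Figure D1:**
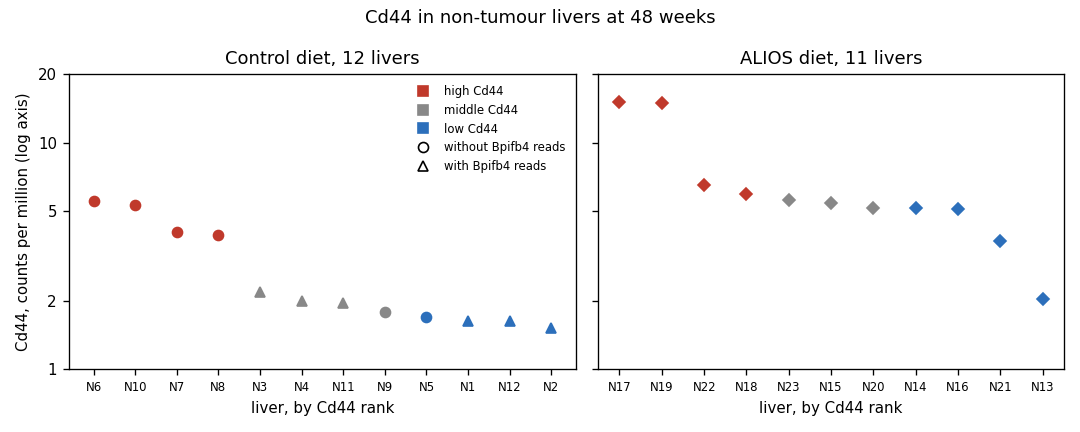
Cd44 in CPM (log axis) in each of the 12 control diet livers (left) and 11 ALIOS diet livers (right), ordered by rank and coloured by high, middle or low group, with circles for control livers without reads of Bpifb4 and triangles for those with them. The 4 high control livers lie between 3.93 and 5.54 CPM, above the other 8 at 1.53 to 2.19, and all 4 are circles.

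The control livers fell into sets that the labels do not describe, and these sets were not spread evenly over the Cd44 groups. Bpifb4, a member of the family of lipid-binding BPI-fold proteins (chr2:153938212-153964101, plus strand), had 0 counts in N5, N6, N7, N8, N9 and N10, which allows up to 0.125 CPM, and 63 to 125 counts (2.16 to 3.56 CPM) in the other 6 livers. ALIOS livers lay at 0 to 0.0865 CPM. All 4 high livers were without Bpifb4, against 1 of the 4 low livers (N5) and 1 of the 4 middle livers (N9). Over 14336 genes, 9 parted these sets of 6 livers at least 2-fold with no overlap. Cysltr2, a leukotriene receptor, was at 2.18 to 6.62 CPM without Bpifb4 and 0.0690 to 0.185 with it. G6pc, the glucose-6-phosphatase of glucose output, was at 33.5 to 118 CPM without and 305 to 428 with, and Scd1, the stearoyl-CoA desaturase of lipid synthesis, at 945 to 4955 without and 13899 to 39537 with. This split was noticed in the data and is given with no test of its own. Whether it reflects the supplier, the substrain or something else was not tested, and its part in any difference between the Cd44 groups cannot be told apart in the comparison of 4 with 4.

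Other livers stood apart singly. N11 (middle) and N12 (low) held the clock gene Arntl at 20.2 and 21.6 CPM, against 0.682 to 1.79 in the other 10 livers. N5 (low), N6 and N7 (both high) held the highest levels of acute phase transcripts, described further down, and N6 held interferon-response transcripts far above every other liver. Values without them are given beside the results they move most.

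**Figure D2:**
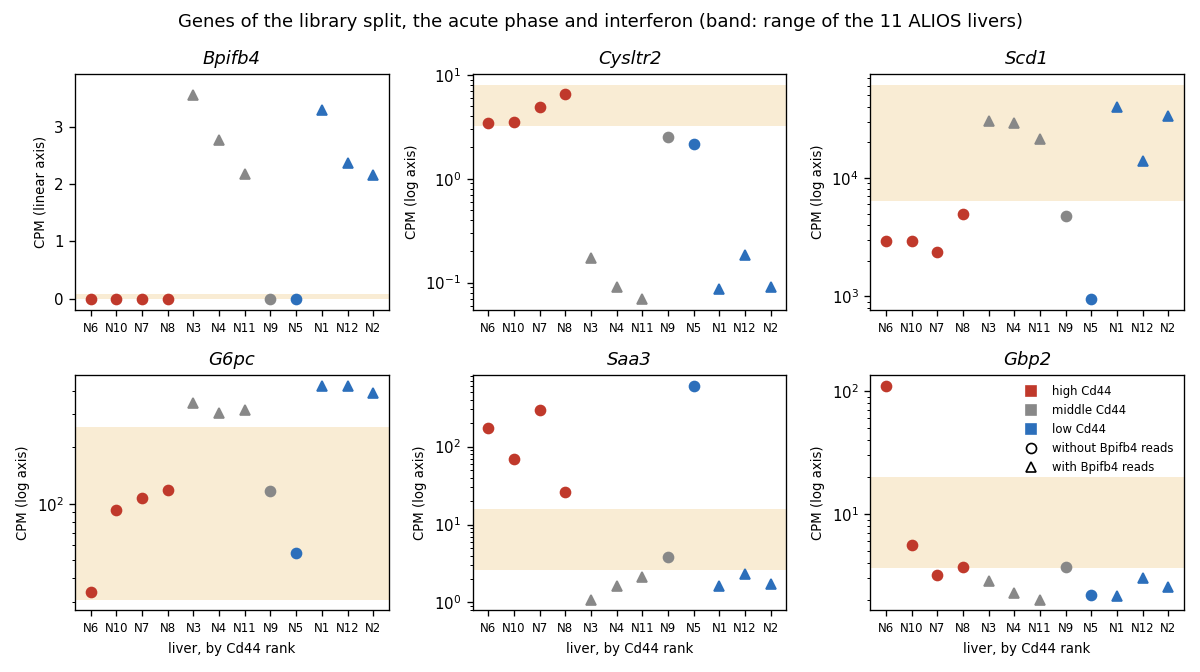
CPM of 6 genes in each control liver, ordered by Cd44 rank (Bpifb4 on a linear axis, the others on log axes), with colours for the Cd44 groups, circles and triangles for livers without and with Bpifb4 reads, and a band for the range of the 11 ALIOS livers. Cysltr2, Scd1 and G6pc follow the shape of the points and not their colour, Saa3 is highest in the low liver N5 at 608 CPM, and Gbp2 stands out in N6 alone at 111 CPM.

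The first question was which transcripts differed between control diet livers of high and low Cd44. Gene by gene, the quasi-likelihood test of edgeR, adjusted by Benjamini-Hochberg, called none of 13754 genes, 0 higher (0.0%) and 0 lower (0.0%), at an adjusted p under 0.05. The smallest adjusted p was 0.442. At an unadjusted p under 0.05 there were 1304 genes, 644 higher and 660 lower, and DESeq2 called 86, of which 54 were higher. The call depended on which livers entered the groups. Without N5 there were 7 calls, and when Cd44 was ranked after scaling by TMM (trimmed mean of M values, edgeR's correction of library size), which exchanges N5 for N11 in the low group, there were 16.

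Values that did not overlap between the 4 high and 4 low livers were counted as a description. In TMM-scaled CPM, 308 genes (2.24%) lay higher in all 4 high livers and 525 (3.82%) lower in all 4. With CPM over the plain column total the split turned, to 611 higher and 73 lower, or 89.3% higher against 37.0% under TMM. The median log2 difference over all genes moved from -0.01 to 0.09 with the scale. The direction of the many small differences was therefore a matter of scaling. Fold changes, slopes and counts without overlap of the gene groups are given in the TMM scale. CPM of single livers, sums of CPM and the median of a list in each liver are over the plain column total. On that plain scale the median log2 difference over all genes was 0.09, so levels in the high livers are shifted slightly upward.

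The gene groups were 36 lists of cell types and pathways. Most lists of leukocytes had a positive median log2 fold change, although few of their members parted the groups without overlap. Lists of hepatocyte identity, matrix and proliferation lay near the median over all genes, which was -0.01, and lists of lipid metabolism lay below it. Of the 26 genes of recruited macrophages 25 were tested and 24 had a positive log2 fold change, with a median of 0.85. Of these genes 7 lay higher in all 4 high livers without overlap, as did 2.24% of all genes. Of 11 tested T and NK cell genes, of 32 on the list, 10 were positive with a median of 1.22. All 9 tested genes of B and plasma cells and all 8 of neutrophils were positive, with medians of 0.51 and 0.66. MHC class II and dendritic cell genes gave 12 of 14 positive and a median of 1.66, chemokines and their receptors 20 of 21 and 0.90, and genes of NF-kB and TNF signalling 21 of 23 and 0.41. Higher without overlap were 3 of the 11 T and NK cell genes, 0 of 9 of B and plasma cells and 2 of 8 of neutrophils. For MHC class II this held for 1 of 14, for chemokines and receptors 2 of 21 and for NF-kB 1 of 23. Several of these medians moved with single livers. NF-kB and TNF signalling went to 17 of 24 and 0.25 without N6, and to 25 of 25 and 0.68 without N5. Without N6 and without N5, the medians were 0.62 and 1.28 for chemokines and receptors and 0.37 and 1.45 for neutrophils. For MHC class II and dendritic cells they were 1.26 and 1.60. In the test of 4 against 4 edgeR called no member of these lists, and DESeq2 called Cybb, Aif1, Ptprc, Spi1, Il2rb, Csf3r and H2-DMa, all higher. Over all 13754 genes DESeq2 called 54 higher.

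**Figure D3:**
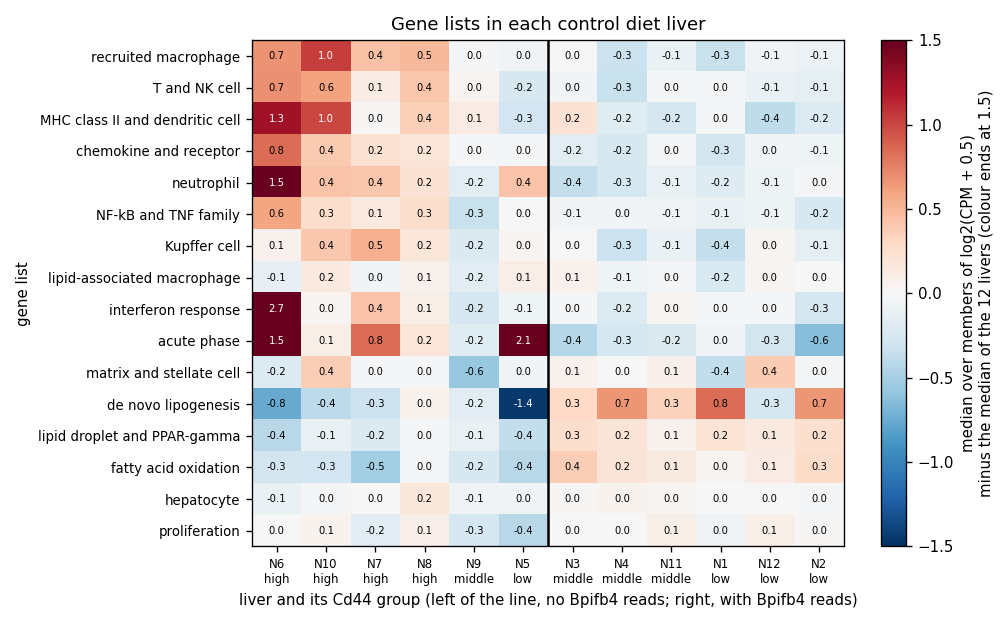
Each row is a gene list and each column a control liver, and the colour and number give the median over the list's members of log2(CPM + 0.5) minus the median of the 12 livers (log2 scale), with livers without Bpifb4 reads left of the line. The lists of recruited macrophages, T and NK cells, MHC class II and chemokines are highest in N6 and N10, that of NF-kB is highest in N6, the Kupffer cell list is highest in N7 at 0.5, the interferon list is highest in N6 at 2.7, the acute phase list is highest in N5 at 2.1, and de novo lipogenesis is lower left of the line than right of it apart from N8 and N9, whose values lie above that of N12 at -0.3.

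Cd44 was next used as a continuous measure over all 12 control livers, as log2 CPM, which keeps the middle livers and gives a slope, the log2 change of a gene for each doubling of Cd44. Here 87 of 14336 genes (0.607%) were called higher with Cd44 and 3 (0.0209%) lower, with edgeR at an adjusted p under 0.05. In 39 of the 87 the 4 high livers lay above all 8 others, as they did in 102 of all genes (0.711%), a pattern that the positive slope favours. N6 held the highest level of 68 of the 87, N10 of 15, N7 of 3 and N8 of 1. In 29 genes N6 lay more than 2 times above the next high liver.

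These calls were sensitive to single livers. Without N6, 2 genes of the 87 were called, Ptprc and Gbp9, and without N2 only Ptprc was, although all 83 that could be tested without N6 had a positive slope. Without N5, N6 and N7, 11 of the 87 were called. Without N11 and N12, none was, with a smallest adjusted p of 0.0750. With the Bpifb4 split as a term in the model no gene was called by edgeR (1226 at an unadjusted p under 0.05, smallest adjusted p 0.557), yet all 87 kept a positive slope, with a median of 0.94 where the median over all genes was -0.02. Within the 6 livers without Bpifb4 all 87 had a positive slope (median 0.98), and within the 6 with it 58 of 80 did (median 0.38). No gene was called by edgeR within either set (538 and 325 at an unadjusted p under 0.05). DESeq2 was not run within the sets.

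Ptprc, which encodes CD45, the phosphatase on all nucleated blood cells, had the smallest p of all genes along Cd44 (chr1:138062861-138175708, minus strand). It was at 11.1 CPM in N6, 12.7 in N10, 8.73 in N7 and 11.4 in N8, at 6.73, 5.14, 5.97 and 4.55 in the middle livers N3, N4, N11 and N9, and at 4.97, 5.25, 4.81 and 4.46 in the low livers N5, N1, N12 and N2. The high livers stood apart from all 8 others, and N9 and N5, which share the absence of Bpifb4 with them, lay among the lowest. The group means were 10.97 ± 1.65 (SD, n = 4) and 4.87 ± 0.328 (SD, n = 4) CPM, a log2 fold change of 1.09 (SE 0.17) that did not pass the edgeR test of 4 against 4 (adjusted p = 0.44). Along Cd44 over 12 livers its slope was 0.72 (SE 0.08, edgeR adjusted p = 0.0049). The slope was 0.67 with the split as a term, 0.68 within the 6 livers without Bpifb4 and 0.72 within the 6 with it, none of which passed the adjusted test. ALIOS livers held 6.10 to 29.3 CPM, so the high control livers lay within the ALIOS range and 7 of the other 8 below it.

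Spi1, which encodes PU.1, the transcription factor of the myeloid lineage, also stood above the other 8 in all 4 high livers. It was at 5.99, 5.58, 5.16 and 4.17 CPM in N6, N10, N7 and N8, and at 1.81 to 3.09 in the other 8. The means were 5.23 ± 0.781 and 2.45 ± 0.465 CPM (SD, n = 4 each), and the slope along Cd44 was 0.66 (SE 0.12, edgeR adjusted p = 0.032). With the split as a term the slope was 0.42, and within the 6 livers with Bpifb4 it was 0.02. Cybb, the catalytic subunit of the phagocyte NADPH oxidase, was at 16.4, 25.3, 13.3 and 17.8 CPM in N6, N10, N7 and N8 and at 7.43 to 10.9 in the others, with a slope of 0.71 (SE 0.11, adjusted p = 0.018). For Cybb too all 4 high livers lay above the other 8. Ncf1, another subunit of the oxidase, was also called, with 2.93 to 4.03 CPM in the high livers and 1.25 to 2.41 in the others, although its exons overlap those of Gtf2ird2 and reads of these cannot be told apart with certainty.

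The other leukocyte genes called along Cd44 were signalling and cytoskeletal genes of all leukocytes. Coro1a, an actin-binding protein, had 3.09 to 6.81 CPM in the high livers and 1.37 to 3.25 in the others, which overlap in N7 and N9, and it shares exons with Bola2. Ikzf1, the transcription factor Ikaros, had 2.87 to 3.24 against 0.758 to 1.87 CPM, and Vav1, an exchange factor behind antigen receptors, 2.60 to 3.46 against 1.54 to 2.11. Lcp2, the adaptor SLP-76, had 4.23 to 6.97 against 2.37 to 3.90 CPM, and Itgal, the integrin LFA-1 alpha chain, 6.29 to 14.5 against 3.59 to 6.13. In bulk tissue more leukocytes and more transcript in each leukocyte cannot be told apart.

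**Figure D4:**
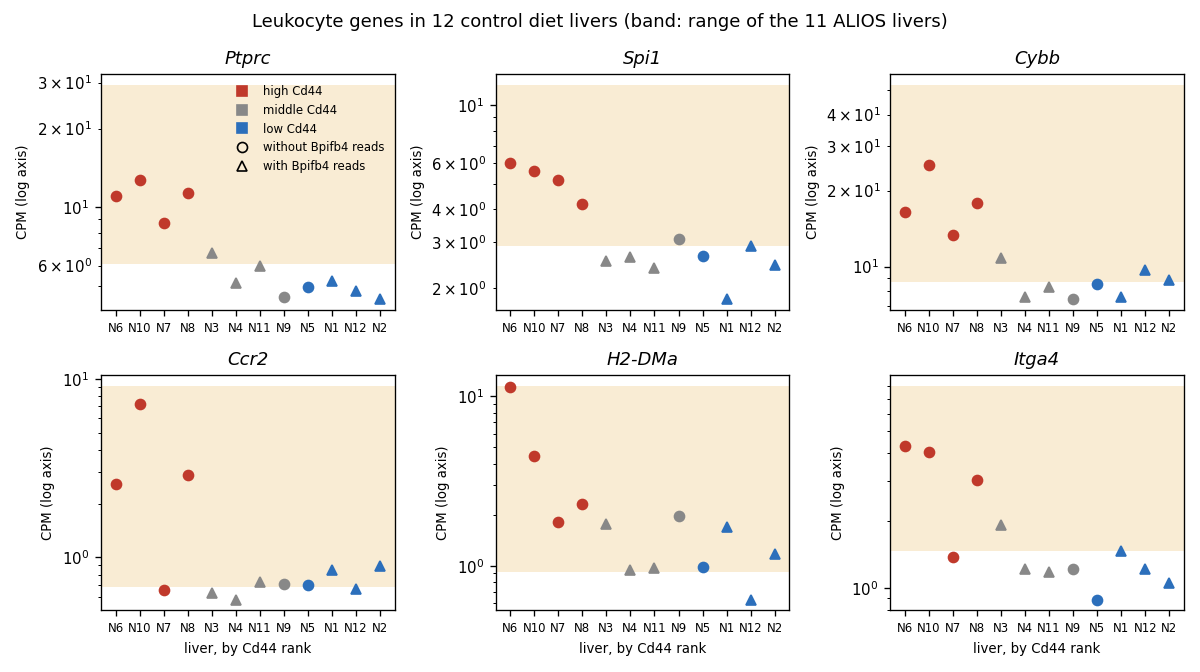
CPM (log axes) of Ptprc, Spi1, Cybb, Ccr2, H2-DMa and Itga4 in each control liver, ordered by Cd44 rank, coloured by Cd44 group, with circles and triangles for livers without and with Bpifb4 reads and a band for the range of the 11 ALIOS livers. For Ptprc, Spi1 and Cybb all 4 high livers lie above the other 8, while N7 lies with the lower livers for Ccr2 at 0.653 CPM and Itga4 at 1.37 CPM.

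Among macrophage genes the median log2 fold change was 0.85 for those of recruited macrophages and 0.30 for those of resident Kupffer cells. Without N5 these were 0.90 and 0.50, and without N6 0.75 and 0.45. Ccr2, the receptor that brings monocytes into tissue, was at 7.24 CPM in N10, 2.90 in N8 and 2.57 in N6, but at 0.653 in N7, within the 0.578 to 0.898 of the 8 other livers. Its slope along Cd44 was 1.47 (SE 0.28, edgeR adjusted p = 0.034). N7 thus shared high Ptprc, Spi1 and Cybb with its group and not Ccr2. Itgam, the CD11b chain, was at 1.07 to 3.71 CPM in the high livers and 0.350 to 1.65 in the others, with N5 highest among them. It did not pass along Cd44 by edgeR (adjusted p = 0.094). DESeq2 called Itgam and, with it, 13 of 25 recruited macrophage genes higher along Cd44, beside 278 of all 14336 genes.

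The pan-macrophage markers Adgre1, which encodes F4/80, and Cd68 were at 7.55 to 17.1 and 8.43 to 13.7 CPM in the high livers, against 6.26 to 9.49 and 6.05 to 9.18 in the other 8, and neither passed the test along Cd44 (adjusted p = 0.27 and 0.30). Of 20 Kupffer cell genes, all tested, 16 had a positive log2 fold change and edgeR called none. DESeq2 called Timd4 in the comparison of 4 with 4, and Timd4 and Hmox1 along Cd44. With the split as a term 10 of the 20 were positive with a median slope of 0.00. Clec4f, which is specific to Kupffer cells, was at 43.2 CPM in N6, 98.9 in N10, 117 in N7 and 91.1 in N8 and at 53.6 to 86.1 in the others, so that N6 was the lowest of all 12. Timd4, a phosphatidylserine receptor of long-lived Kupffer cells, was at 8.59 to 12.5 CPM against 5.73 to 9.005 and did not pass along Cd44 by edgeR (adjusted p = 0.13).

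Lipid-associated macrophages, which take up lipid in fatty liver and express Trem2 and Gpnmb, were not a shared feature of the high livers. Of 23 genes on that list 22 were tested and 9 had a positive log2 fold change, with a median of -0.08, and 12 of 23 were positive without N5. Trem2 was at 1.55 CPM in N10 and at 0.0834 to 0.516 in the other 11 livers, and Gpnmb was at 3.49 CPM in N10 and at 0 to 0.786 elsewhere. N10 thus held the highest level of both. On the ALIOS diet Trem2 ran from 0.210 to 5.86 CPM and Gpnmb from 0.0350 to 12.4.

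Among lymphocyte genes, Il2rb, a chain of the receptors for interleukins 2 and 15 on NK and activated T cells, was at 2.02, 1.98, 1.13 and 1.45 CPM in N6, N10, N7 and N8, and at 0.466 to 1.08 in the others. Its slope was 0.84 (SE 0.17, edgeR adjusted p = 0.049). In CPM over the plain column total all 4 high livers stood above the other 8, N7 only narrowly. After TMM scaling N7 no longer did. The defining T cell genes Cd3e and Cd8a, at 0.130 to 0.453 and 0.0687 to 0.302 CPM in the high livers and at most 0.292 and 0.175 in the others, were too sparse to be tested, and Foxp3 of regulatory T cells was at 0 to 0.130 CPM. In B and plasma cells neither edgeR nor DESeq2 called a gene. Ighm, the IgM heavy chain, was highest in the middle liver N11 at 95.5 CPM and lay at 20.97 to 57.4 CPM in the high livers.

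Csf3r, the receptor for granulocyte colony-stimulating factor and a neutrophil marker, was at 4.98, 2.95, 3.02 and 1.93 CPM in N6, N10, N7 and N8 and at 0.912 to 1.46 in the others, with a slope of 0.95 (SE 0.15, edgeR adjusted p = 0.018). The neutrophil alarmins S100a8 and S100a9 had a different order. S100a8 was at 4.72 CPM in N6 and 3.64 in the low liver N5, against 0.648 to 1.75 in N10, N7 and N8 and 0.259 to 0.641 in the rest, and S100a9 likewise was at 8.34 in N6 and 6.71 in N5. Neither passed the test along Cd44 (adjusted p = 0.58 for each). For the 8 neutrophil genes the median log2 fold change was 1.45 without N5 and 0.37 without N6.

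Antigen presentation by MHC class II followed N6 and N10. Ciita, the transactivator of class II genes, was at 16.8 CPM in N6, 2.77 in N10, 0.859 in N7 and 1.75 in N8, and at 0.333 to 1.14 in the others, with a slope of 1.99 (SE 0.34, edgeR adjusted p = 0.023). H2-DMa, which loads peptide onto class II, was at 11.4, 4.47, 1.82 and 2.30 CPM in N6, N10, N7 and N8 and at 0.629 to 1.96 in the others, with a slope of 1.35 (SE 0.25, adjusted p = 0.032). N7 lay within the range of the other 8 for both. Without N6 the slopes were 0.998 (adjusted p = 0.27) for Ciita and 0.87 (0.29) for H2-DMa. Ciita shares exons with Dexi, and H2-DMa with Brd2. The invariant chain Cd74 was at 166 CPM in N10, 73.8 in N6, 64.4 in N8 and 20.0 in N7, against 9.97 to 49.4, and did not pass (adjusted p = 0.13). Irf8, a factor of monocytes and dendritic cells that interferon gamma raises, was at 24.2 CPM in N6 and 4.78 to 7.49 in the other high livers, against 2.19 to 4.68, with a slope of 1.12 (adjusted p = 0.035) that was 0.60 without N6 (adjusted p = 0.31).

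Of the chemokines, Cxcl9, which interferon gamma induces and which attracts activated T cells, was at 260 CPM in N6, 39.3 in N10, 6.29 in N7 and 13.8 in N8, and at 4.90 to 14.5 in the others. Its slope was 2.20 (SE 0.41, edgeR adjusted p = 0.032) and 1.04 without N6 (adjusted p = 0.34). Cxcl10, a ligand of the same receptor, was at 50.6 CPM in N6 and 0.411 to 1.58 in all 11 other livers, and its slope of 2.52 (adjusted p = 0.032) was 0.41 without N6 (adjusted p = 0.66). It also shares exons with Art3. Ccl5 was at 3.10 CPM in N10 and 1.51 in N8 and at 0.269 to 0.751 in the other livers, and did not pass (adjusted p = 0.24). Among the receptors and partners of CD44 itself, 18 genes tested along Cd44, edgeR called only the integrin chain Itga4 (DESeq2 also called others, among them Vcan and Msn), with 4.298, 4.03, 1.37 and 3.02 CPM in N6, N10, N7 and N8 and 0.886 to 1.91 in the others (slope 0.94, SE 0.16, adjusted p = 0.023, with exons shared with Cerkl).

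The interferon response was mainly that of a single liver. Summed over the 32 genes of the list, N6 held 10344 CPM, the other 3 high livers 1026 to 1363, the 8 other control livers 929 to 1147 and the ALIOS livers 1092 to 1720. All 32 genes had a positive log2 fold change in the comparison of 4 with 4 (median 1.48). Without N6, 26 did, with a median of 0.26. Iigp1, an interferon-induced GTPase, was at 5179 CPM in N6 and 216 to 377 elsewhere. Gbp2, a guanylate-binding protein, was at 111 CPM in N6, 5.58 in N10, 3.16 in N7 and 3.72 in N8, against 2.001 to 3.67 in the others. Ifng was at 0.358 CPM in N6 and at most 0.0834 elsewhere.

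Of the 32 genes on the list edgeR called 5 higher along Cd44 over the 12 livers, Mx1, Gbp2, Gbp3, Gbp5 and Ifi44. Over all genes it called 0.607% higher. Gbp2 had a slope of 2.29 (SE 0.42, edgeR adjusted p = 0.032), which was 0.47 without N6 (adjusted p = 0.47). Tgtp1, a T cell GTPase induced by interferon, was at 545 CPM in N6 and 0.760 to 4.61 in the other livers (slope 3.89, adjusted p = 0.023, and 0.66 without N6, adjusted p = 0.53). Tgtp1 and its near-identical neighbour Tgtp2 share reads, as may the Gbp genes, so the split between copies is uncertain. Mx1, an antiviral GTPase, was at 5.80 CPM in N6, 1.48 in N10, 3.54 in N7 and 1.15 in N8 and at 0.443 to 1.52 in the others (slope 1.31, adjusted p = 0.030).

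Ubd, which encodes the ubiquitin-like modifier FAT10 that tumour necrosis factor and interferon gamma raise, was not a feature of N6 alone. It was at 15.6 CPM in N10, 11.4 in N6 and 7.35 in N8, but at 0.172 in N7, within the 0.148 to 0.626 of the 8 other livers. Its slope was 3.21 (SE 0.44, edgeR adjusted p = 0.018) and 3.26 without N6 (adjusted p = 0.062). For Ubd and for Ccr2 alike, N10, N6 and N8 lay above all others and N7 among the low values. ALIOS livers covered the whole span of Ubd, from 0.239 to 40.8 CPM.

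Promoters are shown for genes called along Cd44 because many moved together, and 3 were chosen after the values were seen, as the gene of largest slope that holds each motif. Genes with provisional names, genes already shown and those of a chromosome from which no sequence is printed were passed over. Sequences are those of RefSeq on GRCm38.p6, from 250 bases before to 50 after the annotated start, and 66 of the 87 genes matched an entry. The capitals mark, in order, GAGGAAGT (bound by PU.1 and other ETS factors) in S100a4, which encodes a calcium-binding protein of leukocytes and fibroblasts, GAAANNGAA (the core of the interferon-stimulated response element) in Tgtp1, and TTCNNNGAA (bound by STAT dimers) in Tgtp2. Tgtp1 and Tgtp2 each hold both GAAANNGAA and TTCNNNGAA, and the capitals leave the other motif of each unmarked. S100a4 lies at chr3:90603520-90603819 on the plus strand, Tgtp1 at chr11:48992197-48992496 and Tgtp2 at chr11:49064163-49064462, both on the minus strand.
S100a4: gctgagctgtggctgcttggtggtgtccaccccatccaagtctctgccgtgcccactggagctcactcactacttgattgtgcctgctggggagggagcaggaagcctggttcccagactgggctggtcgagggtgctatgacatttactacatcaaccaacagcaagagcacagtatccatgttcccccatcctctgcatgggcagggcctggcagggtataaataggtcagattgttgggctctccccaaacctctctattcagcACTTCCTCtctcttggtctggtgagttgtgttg
Tgtp1: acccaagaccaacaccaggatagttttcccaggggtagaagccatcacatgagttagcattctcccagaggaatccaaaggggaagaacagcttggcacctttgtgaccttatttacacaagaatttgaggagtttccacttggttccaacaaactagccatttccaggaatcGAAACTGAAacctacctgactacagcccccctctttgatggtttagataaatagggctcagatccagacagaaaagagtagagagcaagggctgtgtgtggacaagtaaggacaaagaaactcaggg
Tgtp2: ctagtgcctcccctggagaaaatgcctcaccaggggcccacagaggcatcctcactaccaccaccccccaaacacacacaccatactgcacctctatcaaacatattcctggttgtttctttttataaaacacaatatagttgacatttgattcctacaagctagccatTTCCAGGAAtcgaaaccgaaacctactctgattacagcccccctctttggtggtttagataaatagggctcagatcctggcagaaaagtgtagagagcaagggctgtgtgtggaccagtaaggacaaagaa

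Searched on both strands, GAAANNGAA was present in 22 of the 66 promoters (33.3%) and in 8.56% of all 27025 promoters, and TTCNNNGAA in 14 (21.2%) and 8.37%. GAGGAAGT was in 5 (7.58%) against 3.29%, and GGGACTTTC, bound by NF-kB, in 2 (3.03%) against 0.326%. The list behind these shares rests largely on N6, which held the highest level of 68 of the 87 genes. Without N6, 2 of the 87 were called. A match is a string of letters and was not tied to binding in these livers, and neighbouring gene copies such as the Gbp and Tgtp families share promoter sequence. S100a4 itself was at 2.02 CPM in N6 and 1.33 in N10, but 0.206 in N7 and 0.484 in N8, against 0.111 to 0.501 in the others (slope 1.59, SE 0.32, edgeR adjusted p = 0.047).

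The direction of acute phase transcripts with Cd44 depended on single livers, N5 and N6 among them. Saa1, which encodes serum amyloid A, was at 9315 CPM in N6 and 7144 in N7, at 433 in N10 and 296 in N8, and highest of all in the low liver N5 at 16255, while the other 7 livers lay at 44.5 to 327. Reads of Saa1 and its close copy Saa2 may be shared. Saa3, the form made also by macrophages, was at 172, 68.8, 293 and 26.3 CPM in N6, N10, N7 and N8, 608 in N5, 3.88 in N9 and 1.08 to 2.30 in the 6 livers with Bpifb4. All 4 high livers and N5 lay above the ALIOS range of 2.59 to 15.8 CPM. Lcn2, the iron-siderophore binding lipocalin, had the same leading livers, with 2433 CPM in N5, 1251 in N6 and 718 in N7, and 2.52 to 99.6 in the rest.

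For the 28 acute phase genes, all tested, 10 had a positive log2 fold change and the median was -0.17, and neither edgeR nor DESeq2 called a gene. The direction hung on N5, since without it all 28 were positive with a median of 1.08, and without N6 only 3 were, with a median of -0.52. Without N5, N6 and N7 together 23 were positive (median 0.44). Along Cd44 over the 12 livers 20 of the 28 slopes were positive (median 0.22). With Cd44 ranked on TMM-scaled CPM, which removes N5 from the low group, all 28 were positive (median 1.12). The livers without Bpifb4 included every liver in which Saa3 was above 2.59 CPM, and with the split as a term none of the 28 had a positive slope (median -0.44).

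Genes of lipid synthesis were lower in most livers without Bpifb4. Summed over the 21 genes of de novo lipogenesis, the 4 high livers held 8762 (N6), 9846 (N10), 10350 (N7) and 14617 CPM (N8), but N5 of the low group held 4463 and N9 of the middle 13146, while all 6 livers with Bpifb4 held 21049 to 57342. In the comparison of 4 with 4, 6 of 21 had a positive log2 fold change with a median of -0.73. With the split as a term the median slope was -0.06. Scd1, which is 1 of the 9 genes picked for parting the sets, makes up much of that sum, and without it the other 20 genes summed to 3518 to 9661 CPM in livers without Bpifb4 and 7150 (N12) to 17805 in those with it, which overlap. Scd1 was at 2956, 2962, 2350 and 4955 CPM in N6, N10, N7 and N8, 945 in N5 and 4742 in N9, below every liver with Bpifb4 and below the ALIOS range of 6399 to 60980. Its log2 fold change of -2.80 (SE 0.87) did not pass (edgeR adjusted p = 0.45). Fasn, the fatty acid synthase, was at 664 to 922 CPM in the high livers, 327 in N5 and 826 in N9, against 1101 to 3828.

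Fatty acid oxidation and lipid droplet genes lay lower in the same way. Of 25 genes of fatty acid oxidation 3 had a positive log2 fold change (median -0.39), and of 18 tested lipid droplet genes 3 did (median -0.22). With the split as a term their median slopes were -0.13 and -0.05. Crat, the carnitine acetyltransferase of mitochondria and peroxisomes, was called lower along Cd44, with 30.6, 26.01, 36.9 and 36.2 CPM in N6, N10, N7 and N8 and 35.0 to 72.6 in the others (slope -0.63, SE 0.10, edgeR adjusted p = 0.018). The lowest of these others were N9 at 35.0 and N5 at 40.5, the livers without Bpifb4, and with the split as a term the slope was -0.38. Crat shares exons with Dolpp1.

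The other genes that edgeR called lower along Cd44 were Rcan2 and Egfem1. Rcan2, a regulator of the phosphatase calcineurin, was at 0.944, 1.15, 0.962 and 1.12 CPM in the high livers and at 2.07 to 3.53 in the other 8 (slope -0.88, SE 0.18, edgeR adjusted p = 0.049). Egfem1 was sparse, with 0.0907 to 0.180 CPM in the high livers and 0.292 to 0.552 in the others (slope -1.16, adjusted p = 0.047). For Rcan2 and Egfem1 the 4 high livers lay below all 8 others, N5 and N9 included.

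Hepatocyte identity, matrix and proliferation were near the background. Of 30 hepatocyte genes 11 had a positive log2 fold change (median -0.06). Alb, which encodes albumin, was at 61190 to 70426 CPM in the high livers and at 55360 to 95327 in the others. Of 37 tested genes of matrix and stellate cells 18 were positive (median 0.00), and Col1a1, the type I collagen chain, was at 8.39 CPM in N10 but 0.653 to 1.30 in N6, N7 and N8, against 0.350 to 2.22. Of 30 tested proliferation genes 15 were positive (median -0.02), and Mki67 was at 0.456 to 1.76 CPM in the high livers and 0.466 to 1.63 in the others. The tumour markers Afp and Gpc3 were at 0.521 to 0.928 and 0.212 to 0.901 CPM in the high livers, within the 0.481 to 1.47 and 0.0317 to 1.22 of the others. Kidney genes, at no more than 0.334 CPM summed over 11 genes, were near 0 in all 12 livers. Other tissues gave 3 of 4 tested genes positive for lymph node (median 0.79) and 3 of 4 for muscle (0.71), 10 of 14 for cholangiocytes and progenitors (0.37) and 5 of 8 for mesothelium (0.12), and edgeR called none of them. The mesothelial genes summed to 7563 to 12822 CPM in the high livers, 16674 in N5 and 3677 to 5182 in N1, N12 and N2. Such a sum is weighted to abundant members, and the median mesothelial gene had another order. Against the median of the 12 livers it lay at -0.53 in N5, 0.74 in N12 and -0.24 to 0.55 in the high livers (log2 scale). The part of these tissues in the results was not tested.

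The same ranking was then made within the 11 ALIOS livers, which share no library with the control livers. The 4 livers of highest Cd44 (N17, N19, N22 and N18) against the 4 of lowest (N14, N16, N21 and N13) gave 276 of 13868 genes called higher (1.99%) and 417 lower (3.01%), a count that fell to 1 without N17, N16 or N13. Cd44 as a continuous measure gave 1136 of 14449 genes higher (7.86%) and 364 lower (2.52%), and without N17 and N19 none by edgeR (2194 at an unadjusted p under 0.05). Of the 87 genes called higher along Cd44 in the control livers, 84 had a positive slope along Cd44 in the ALIOS livers, where 50.4% of all genes did, and 59 were called there in the same direction. These 59 are 67.8% of the control list and 5.19% of the ALIOS list. The median slope of the 87 was 0.65, against 0.00 over all genes. Without N17 and N19 it was 0.57, with 83 of 87 positive and none called by edgeR.

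Single genes were set side by side for both diets. The slopes of Ptprc were 0.74 (SE 0.09, edgeR adjusted p = 0.00067) in ALIOS and 0.72 in control livers, those of Spi1 0.68 (adjusted p = 0.0013) and 0.66, and those of Cybb 0.84 (adjusted p = 0.00065) and 0.71. For Mx1 the ALIOS slope was 0.07 (adjusted p = 0.88) beside 1.31 in control livers, and for Gbp2 it was 0.69 (adjusted p = 0.0061) beside 2.29. The 32 interferon genes had a median log2 fold change of 0.08 between high and low ALIOS livers, and 1.48 in control livers with N6 or 0.26 without it. A difference between the slopes was not tested. For the contrasts of 4 with 4 the difference between the diets was not called by edgeR for any of these genes (adjusted p = 0.84 for Ptprc, 0.25 for Gbp2 and 0.090 for Mx1). Macrophage markers that did not pass in control livers were called in ALIOS livers, Adgre1 with a slope of 0.74 (adjusted p = 0.0018), Cd68 with 0.59 (0.0011) and Trem2 with 1.14 (0.048), and the differences of their 4 against 4 contrasts between the diets were not called either (adjusted p = 0.59, 0.46 and 0.56).

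**Figure D5:**
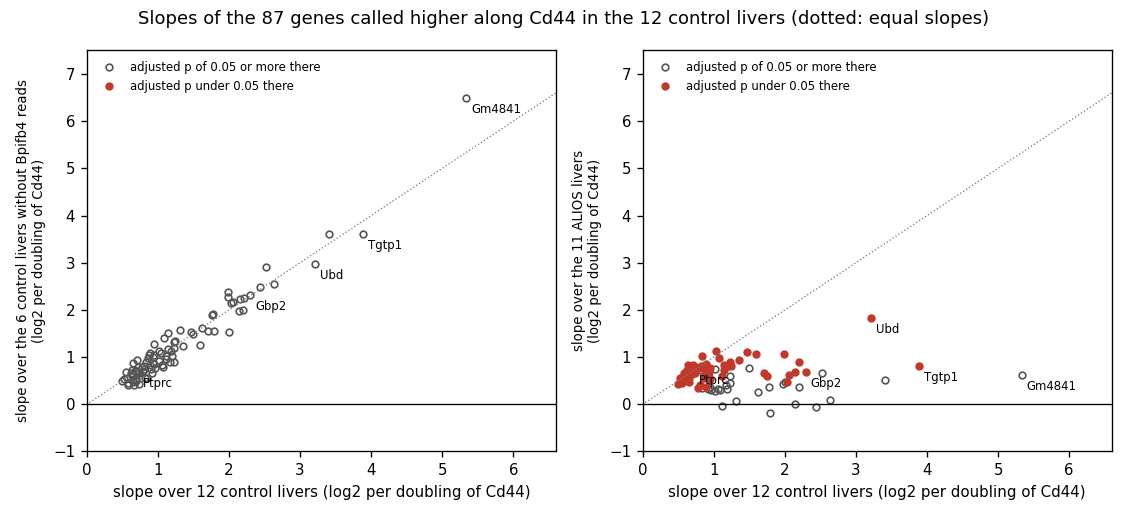
Each point is 1 of the 87 genes called higher along Cd44 in the 12 control livers, with its slope there (x axis, log2 per doubling of Cd44) against its slope within the 6 control livers without Bpifb4 reads (left, which share libraries with the x axis) and in the 11 ALIOS livers (right), red where the gene is called there. On the left all points are above 0 with a median of 0.98, and on the right 84 are above 0 with a median of 0.65, while Gm4841 and Tgtp1, which are highest in N6, lie far below the dotted line of equal slopes.

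The difference between the diets in the contrast of high and low Cd44 was tested directly, in 1 model of all 4 groups. The model held no term for the Bpifb4 split, which lies along the control contrast. ALIOS livers, at 0 to 0.0865 CPM of Bpifb4 and 3.24 to 7.98 of Cysltr2, resembled control livers without Bpifb4. Their Scd1, at 6399 CPM or more, lay above those livers. The part of the split in these differences cannot be told apart from that of diet. Of 14384 genes 49 were more positive in the control livers (0.341%) and 41 more negative (0.285%), and none of these was on a list of cell types or pathways, while DESeq2 called list members such as Mx1, Scd1 and Plin2. Leaving out single livers moved the count between 2 and 639. Cldn2, the pore-forming claudin, was at 93.4 to 135 CPM in the high control livers and 174 to 212 in the low (log2 fold change -0.73), and its ALIOS log2 fold change was 0.49, a difference of -1.20 (edgeR adjusted p = 0.0087). N9, which is also without Bpifb4, held the lowest level of all 12 livers at 85.7 CPM and N5 held 178. Mgat4b, an enzyme of N-glycan branching, had log2 fold changes of -0.39 and 0.48 in the control and ALIOS livers (difference -0.86, adjusted p = 0.0071). Rcan2 was called lower along Cd44 in control livers and higher in ALIOS livers (slope 1.1, adjusted p = 0.016), and the difference between the contrasts was -3.80 (adjusted p = 0.031).

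In the other direction, Adamts7, a secreted metalloprotease, was at 23.4 to 50.1 CPM in the high and 14.8 to 23.5 in the low control livers, with log2 fold changes of 0.77 in control and -0.96 in ALIOS livers (difference 1.75, edgeR adjusted p = 0.013). It shares exons with Tbc1d2b. The remaining genes named by rank were Zfp57, an imprinting factor, with log2 fold changes of 0.94 and -0.83 (difference 1.78, adjusted p = 0.031), and Atxn7, a subunit of the SAGA complex, with 0.27 and -0.64 (difference 0.92, adjusted p = 0.031). Mup1, a major urinary protein that male growth hormone raises, was chosen after its values were seen. It was at 33.2 to 60.5 CPM in the high and 20.99 to 23.2 in the low control livers, with the middle livers between 21.8 and 27.8, and its log2 fold change was 0.81 in control and -1.31 in ALIOS livers (difference 2.14, adjusted p = 0.039). Mup genes are a family of near-identical copies, so its share of reads is uncertain.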

How the data were processed

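Of 50 RNA-seq libraries in the series, the 23 of non-tumour liver were used (12 control diet, 11 ALIOS). The authors deposited raw counts per gene. According to the methods and the submitters' processing notes, the libraries were stranded, paired-end and made from mRNA. STAR (2 passes) aligned the reads to mm10, and HTSeq (intersection-nonempty) assigned them to exons of Gencode M6. The tool versions and the strand option are not given in the sources used here, so reads of overlapping genes on opposite strands may be mixed. Of 45792 rows all name a gene. The table gives a symbol for 23214, and 22132 took one from Gencode M21, which also gave coordinates.

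Groups were the 4 highest and 4 lowest of each diet by Cd44 CPM. The members and the gene lists were chosen with earlier results of these data known. Genes were filtered with filterByExpr, scaled with TMM and tested with edgeR 4.0.16 (glmQLFit and glmQLFTest, limma 3.58.1, R 4.3.3) on the groups compared, without covariates. A call is a Benjamini-Hochberg adjusted p under 0.05. The SE is the log2 fold change over the square root of F. The model across Cd44 used log2 CPM of Cd44 over all livers of a diet, and the difference between the diets used all 4 groups. The study's own tool, DESeq2 1.42.0, was an alternative, as were other scalings, filters, group sizes and the removal of each liver. CPM printed for a liver are over the plain column total. Single values used exact permutation tests (scipy 1.17.1, numpy 2.4.6, pandas 2.3.3, Python 3.11.15). The scripts were tested on simulated data.

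edgeR called no gene in the comparison of 4 with 4, so the parts of the rule for named genes that needed calls there named none. Named are the 4 members of each list with the smallest p, the genes that define cell types and the 3 of smallest p in each direction of the difference between the diets. Genes called along Cd44, genes of the library split and others outside that rule were chosen after their values were seen. Of 757 list genes 5 had no row. Control libraries differed by a chi-square per gene of at least 12.0 where sampling noise gives about 1, so none was a copy of another. Intervals from replicates do not cover the unknown batches, and totals of 23968280 to 35091968 counts a control liver leave genes under 1 CPM with few counts.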

Additional observations from a re-analysis of the deposited data

Results flagged for a closer look

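Summed CPM of each gene list was searched for a liver far from the other 3 of its group by Dixon's test for 4 values. Of 72 groups searched 10 held such a liver, where chance gives about 3.6. In the high Cd44 group N6 stood apart 3 times, with interferon-response genes at 10340 CPM against 1026 to 1363 in N10, N7 and N8, endothelial genes at 360.7 against 462 to 485, and genes of unfolded protein and stress at 3995 against 2732 to 2911. N10 stood apart in immediate early genes, at 243.1 CPM against 270.7 to 275.3.

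In the low Cd44 group N5 stood apart 5 times. Its recruited macrophage genes summed to 471.2 CPM against 267.6 to 294.7 in N1, N12 and N2, its neutrophil genes to 16.9 against 4.52 to 4.94 and its chemokine and receptor genes to 755.9 against 460 to 476. Its genes of fatty acid oxidation summed to 6984 CPM against 15473 to 16968 and its erythroid genes to 86.13 against 172 to 198. These sums are weighted to abundant members. Against the median of the 12 control livers, the median member in N5 lay at -0.05 for recruited macrophages (log2 scale). For chemokines and receptors it lay at -0.02, and for neutrophils at 0.43. N12 stood apart in pancreas acinar genes, at 69.64 CPM against 45.7 to 47.9.

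The contrast of high and low Cd44 differed between the diets by edgeR's test of the difference in 90 genes, which are described with the difference between the diets. What sets N5, N6, N10 or N12 apart was not tested.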

How the results depend on the processing

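In the comparison of 4 with 4 control livers edgeR called 0 genes under the other scalings (DESeq2 size factors, upper quartile), no filter, a mean count of at least 100, groups of 5 or 6, the middle livers in the fit and an added fold of 2. DESeq2 called 86, Cd44 as a continuous measure 90, groups of 3 called 3, ranking on TMM-scaled CPM 16, the Bpifb4 split as a term 1 and the removal of N5, N6 and N7 together 3. Leaving out 1 liver gave 0 to 7. Along Cd44 the 90 calls became 363 with DESeq2, 222 with Cd44 as TMM-scaled CPM, 19 without N5, N6 and N7, and 0 with the split as a term, within either set of 6 livers, or without N11 and N12. Leaving out 1 liver gave 1 (N2) to 299 (N5). In ALIOS livers the 693 calls became 2320 with DESeq2, 1500 with continuous Cd44 and 0 with that measure without N17 and N19, and leaving out 1 liver gave 1 to 510. The difference between the diets, 90 calls, became 809 with DESeq2 and 53 without a filter, and leaving out 1 liver gave 2 to 639. The cause of these shifts was not tested.

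The alternatives that use the Bpifb4 split, N11 and N12, N5 to N7 together, or N17 and N19, and all those of continuous Cd44, were added after seeing the data. Of 2937 fits of 150 named genes under the alternatives 88 changed sign, none of them with a call in either fit, and 22 gained a call. No paired analysis was possible because the liver numbers are names and pair no samples. Depth limits genes under about 1 CPM, such as Cd8a and Foxp3.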
